A study of Homo sapiens with 6 samples.

Results

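Messenger RNA levels of 10 genes that encode intermediate filament proteins were followed in HK2 cells, a human line immortalised from the proximal tubule of the kidney. The genes were taken by name from the 25808 genes of the deposited expression table: the keratins KRT7, KRT8, KRT18, KRT19, KRT80, KRT81 and KRT10, vimentin (VIM) and the lamins LMNA and LMNB1. Each had 1 row in the table, and none was below 1 FPKM (reads scaled to gene length and to the reads of the library) in any of the 6 libraries. The flame retardant and plasticiser TBOEP, tris(2-butoxyethyl) phosphate, was given at 20 µM for 48 hours from confluency in 3 libraries. The other 3 libraries were from HK2 cells given DMSO, the solvent, at a dose and for a time that are not stated. The study asked how TBOEP bears on renal metabolism. All libraries come from this 1 line, and whether the replicates of a group were cultured apart is not stated. The p-values therefore cover the spread among these 6 libraries alone, and that spread may be technical.

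Intermediate filaments are rope-like polymers that give cells mechanical strength. Keratin filaments form from obligate pairs of a type I and a type II keratin. In simple epithelia such as the kidney tubule KRT8 (type II) and KRT18 (type I) form the main pair, joined in some epithelia by KRT7 and KRT19. Vimentin is the type III filament protein of mesenchymal cells; tubule cells make it in culture and after injury. Lamins line the inner face of the nuclear envelope.

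The 6 libraries held between 32547856 and 38247579 reads, recovered from the steps between FPKM values, so 1 read on a gene of 1 kb was worth 0.0261 to 0.0307 FPKM. The members were covered by 1231 to 87609 reads per library. PAX8, a kidney lineage factor among the proximal tubule markers, had a mean of 37.1 FPKM in DMSO and 36.7 in TBOEP and was not called. The transporters and brush border enzymes on that list that have a row, such as CUBN, SLC34A1, AQP1 and ANPEP, were below 1 FPKM. Markers of the distal tubule, collecting duct, stratified epithelium, endothelium and leukocytes stayed below 1 FPKM in every library, and of 4 fibroblast markers only COL1A1 reached it, with DCN, LUM and PDGFRB below 1 FPKM.

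Several filament genes have near-identical copies with which reads can be shared, and the stretch in which KRT81 and its copy differ most is given because only reads covering such positions tell the copies apart. The sequences run 5′ to 3′ along the coding strand, are from GENCODE 29 transcripts, and carry capitals at the bases that differ between the pair. KRT81 and KRT86, neighbouring hair keratin genes on chromosome 12, were 93.9% identical over their aligned coding sequence, with an identical run of 605 bases. Positions 1249 to 1308 of the KRT81 coding sequence held 14 differences in 60 bases.
KRT81: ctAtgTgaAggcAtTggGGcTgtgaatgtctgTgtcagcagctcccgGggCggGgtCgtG
KRT86: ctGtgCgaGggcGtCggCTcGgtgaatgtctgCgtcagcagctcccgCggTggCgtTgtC
KRT8 and the copy KRT8P12, a processed pseudogene on chromosome 3, were 86.1% identical. A second copy, KRT8P3, was 97.1% identical to the KRT8 coding sequence. The 18 KRT8 pseudogenes in the table together held 5.51 to 7.27 FPKM, at most 2.66% of KRT8 itself. The 18 KRT18 pseudogenes held at most 0.694 FPKM, which was 0.624% of KRT18. KRT86 lay below KRT81, at 0.951 ± 0.0724 FPKM in DMSO and 0.612 ± 0.0300 in TBOEP (SD, n = 3 each), and was not tested because it fell under the filter.

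TBOEP libraries had less KRT8, KRT7, KRT19 and KRT81 mRNA and more KRT18, vimentin and LMNB1 mRNA than DMSO libraries. Changes were modest: of the called members KRT81 fell by 22.8% and VIM rose by 27.1%, the lowest and highest of the 10. The KRT8 and KRT18 mRNAs, whose proteins pair in filaments, moved in opposite directions. Tests came from limma on log2(FPKM + 1), two-sided, on the 9631 genes that reached 1 FPKM in 3 or more libraries, with Benjamini-Hochberg adjustment over all of them and a threshold of 0.05. Of the 10 members, 3 were called higher and 4 lower, and 3 were not called. Over all tested genes 53.8% were called, 26.9% higher and 26.9% lower, and 7 of 10 members is a share near that background. The groups did not overlap for 7 members, against 62.3% of tested genes. The members' median log2 fold change was -0.10 and that of all tested genes was -0.02. After median centring 2 members were higher and 6 lower, and the share of all calls that were higher went from 50.1% to 38.6%. FPKM is scaled to the reads of each library, so it shows neither cell number nor RNA per cell. Fewer cells and less RNA per cell cannot be told apart in bulk samples.

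**Figure D1:**
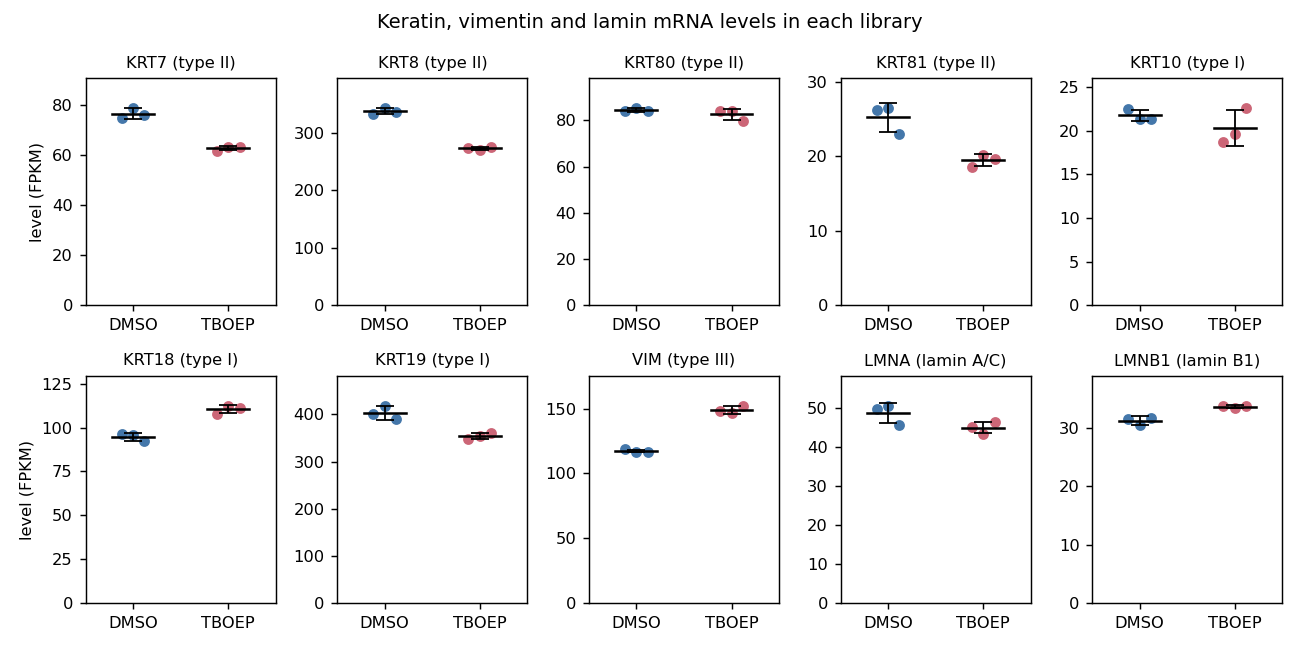
Level of each of the 10 genes in FPKM (vertical axis, from 0, with its own scale in each panel) in the 3 DMSO libraries (blue) and the 3 TBOEP libraries (red); bars are the mean and SD. The groups lie apart for KRT7, KRT8, KRT81, KRT18, KRT19, VIM and LMNB1, and overlap for KRT80, KRT10 and LMNA.

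The order of levels in DMSO was KRT19, KRT8, VIM, KRT18, KRT80, KRT7, LMNA, LMNB1, KRT81 and KRT10, with no overlap between neighbours over the 3 libraries. KRT19 ranked 134 and KRT10 ranked 2063 among the 9631 tested genes by mean level. TBOEP kept that order except at its foot, where KRT10 (20.3 FPKM) and KRT81 (19.5 FPKM) overlapped. FPKM is a level per length of annotated gene, and the length behind it was not the same as the main transcript: for KRT8 the values implied 6881 bases against 2126 in the principal GENCODE 29 transcript, and for KRT18 3069 against 1562. The levels of different genes therefore carry the annotation as well as the RNA, whereas that length cancels in a gene's own TBOEP to DMSO ratio. The assignment of reads in bases shared with another gene, as between KRT8 and KRT18, does not cancel.

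KRT8 (ENSG00000170421; chromosome 12, 52897187 to 52949954, minus strand, GRCh38 as annotated in GENCODE 29), the type II keratin of simple epithelia, was at 333, 343 and 337 FPKM in the DMSO libraries and 273, 270.0 and 276 in the TBOEP libraries. Every TBOEP library was below every DMSO library, by far more than the spread within either group. The mean fell by 19.1%, from 338 ± 5.10 to 273 ± 2.78 FPKM (SD, n = 3), a log2 fold change of -0.31 ± 0.02 (SE; limma adjusted p = 1.64e-05). KRT8 was called lower in each of 19 alternative settings, between -0.37 and -0.21.

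KRT7 (ENSG00000135480; chromosome 12, 52232520 to 52252186, plus strand), a type II keratin of ducts and other simple epithelia, was at 74.98, 78.97 and 76.3 FPKM in DMSO and 61.9, 63.3 and 63.4 in TBOEP. The TBOEP values were tightly grouped and all lower. KRT7 fell by 18.1%, from 76.7 ± 2.04 to 62.9 ± 0.806 FPKM, a log2 fold change of -0.28 ± 0.03 (limma adjusted p = 7.28e-05). With GC content and length taken out the change was -0.01 (limma adjusted p = 0.675) and the call was lost.

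KRT81 (ENSG00000205426; chromosome 12, 52285913 to 52291534, minus strand), a type II keratin best known from hair, was at 26.2, 26.5 and 23.0 FPKM in DMSO and 18.6, 20.2 and 19.6 in TBOEP. DMSO replicate 3 lay nearest to the TBOEP libraries without reaching them. The mean fell by 22.8%, with a log2 fold change of -0.36 ± 0.06 (limma adjusted p = 8.75e-04). KRT86, the gene whose reads it could share, had its TBOEP libraries below its DMSO libraries too, but at 50 to 95 reads per library. After GC and length correction KRT81 was at -0.11 and not called (limma adjusted p = 0.0988).

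KRT80 (ENSG00000167767; chromosome 12, 52168996 to 52192000, minus strand), a type II keratin of epithelial cells, was at 84.2, 85.3 and 84.0 FPKM in DMSO and 84.1, 83.9 and 79.8 in TBOEP. The groups overlapped through TBOEP replicate 1, and TBOEP replicate 3 was the lowest. The log2 fold change was -0.03 ± 0.03 (limma adjusted p = 0.387). Summed over the 4 type II members, the level was 524 ± 8.49 FPKM in DMSO and 438 ± 0.514 in TBOEP, 16.4% less in the mean, with no overlap (exact permutation p = 0.1, the smallest that 3 against 3 libraries allow).

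KRT18 (ENSG00000111057; chromosome 12, 52948871 to 52952901, plus strand), the type I partner of KRT8, was at 96.5, 95.5 and 92.3 FPKM in DMSO and 108, 112 and 111 in TBOEP. All 3 TBOEP libraries were above all 3 DMSO libraries. KRT18 rose by 16.5%, from 94.8 ± 2.18 to 110.4 ± 2.43 FPKM, a log2 fold change of 0.22 ± 0.03 (limma adjusted p = 3.53e-04). It was called higher in each of 19 alternative settings, between 0.16 and 0.42. KRT18 is the only gene among the type I keratins here that lies on chromosome 12, next to KRT8 on the opposite strand, and their annotated exons overlap by 525 bases. Since the labels name 2 library kits and not how strand was treated, reads in that overlap cannot be assigned to either gene from the table.

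KRT19 (ENSG00000171345; chromosome 17, 41523617 to 41528308, minus strand), the smallest keratin and the member with the highest FPKM, was at 401, 418 and 389.7 FPKM in DMSO and 348, 353 and 361 in TBOEP. The groups did not overlap, and the DMSO libraries were the more spread. KRT19 fell by 12.2%, from 403 ± 14.5 to 354 ± 6.56 FPKM, a log2 fold change of -0.19 ± 0.03 (limma adjusted p = 0.00124). GC and length correction turned its direction, to 0.07 (limma adjusted p = 0.0273).

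KRT10 (ENSG00000186395; chromosome 17, 40818117 to 40822595, minus strand), the type I keratin of the upper epidermis, was at 22.5, 21.4 and 21.4 FPKM in DMSO and 18.7, 19.7 and 22.6 in TBOEP. TBOEP replicate 3 was above every DMSO library while the other two were below them. The log2 fold change was -0.10 ± 0.06 (limma adjusted p = 0.234). Without TBOEP replicate 3 it was -0.17 (limma adjusted p = 0.0152), and after GC and length correction -0.36 (limma adjusted p = 0.00351). The call on KRT10 thus depended on 1 library and on the correction. The 3 type I members summed to 519.6 ± 15.9 FPKM in DMSO and 485 ± 10.2 in TBOEP (exact permutation p = 0.1).

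Together the 7 keratins amounted to 1044 ± 23.2 FPKM in DMSO and 923 ± 10.4 in TBOEP, 11.6% less in the mean (exact permutation p = 0.1). The FPKM of all genes summed to 378135 to 381855 in the DMSO libraries and to 361398 to 363918 in the TBOEP libraries, so it was lower as well. That is the background for this sum and for those of the type II, type I and lamin members. KRT8 made up 32.4% of the summed keratin FPKM in DMSO and 29.6% in TBOEP, and KRT18 9.08% and 11.97%. KRT19 held 38.6% and 38.4%. Like the levels, these shares rest on the lengths behind the values (6881 bases for KRT8, 2336 for KRT19), so they do not rank amounts of RNA. No other keratin came near: of the 15 further keratin genes listed, 3 reached 1 FPKM in any library, 12 stayed below it and 5 of those were below 0.1 FPKM. KRT15, a type I keratin of basal cells, was at 1.28 FPKM in DMSO and 1.52 in TBOEP (limma adjusted p = 0.0903). KRT78 was at 1.10 and 1.03 FPKM (limma adjusted p = 0.516), so neither of the tested ones was called, nor did either pass at an unadjusted p under 0.05 by limma or limma-voom. Of the 36 KRT8 and KRT18 pseudogenes, the tested KRT8P3 and KRT8P12 were at 3.78 and 1.60 FPKM in DMSO and at 3.49 and 1.88 in TBOEP, with overlapping groups (limma adjusted p = 0.447 and 0.460).

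Ratios between members of 1 library do not depend on how libraries are scaled. The KRT18 to KRT8 ratio of FPKM was 0.290, 0.278 and 0.274 in DMSO and 0.394, 0.416 and 0.403 in TBOEP. Each TBOEP library had more KRT18 for its KRT8 than any DMSO library, by 0.53 in mean log2 ratio. The exact two-sided permutation p was 0.1, the smallest possible here, and 0.125 after Benjamini-Hochberg adjustment over the 10 ratios compared. Over 11 alternatives the difference lay between 0.51 and 0.62. Among the type II keratins, KRT7 to KRT8 differed by 0.02 and KRT81 to KRT8 by -0.06 in log2 ratio, with overlapping groups (exact permutation p = 0.4 for each, adjusted 0.4). After GC and length correction the KRT7 to KRT8 difference was 0.19, with groups that no longer overlapped, and with the longest transcript 0.30. KRT80 to KRT8, a ratio added after its values were seen and not tested, was 0.253, 0.249 and 0.249 in DMSO. In TBOEP it was 0.308, 0.311 and 0.290, higher in every TBOEP library, by 0.27 in mean log2 ratio. After GC and length correction the KRT80 to KRT8 difference was 0.15.

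Among the type I keratins the ratio of KRT19 to KRT18 went from 4.16, 4.38 and 4.22 to 3.23, 3.14 and 3.25, a log2 difference of -0.41 with no overlap. KRT10 to KRT18 differed by -0.32. The summed type II over type I FPKM, weighted by those lengths as well, went from 0.996, 0.997 and 1.03 to 0.924, 0.901 and 0.887, a log2 difference of -0.16. For these 3 ratios the exact permutation p was 0.1, adjusted 0.125, and none turned with GC and length correction, at -0.35, -0.77 and -0.27. With the longest transcript they were at -0.13, -0.53 and -0.29, so most of the KRT19 to KRT18 difference was lost there.

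**Figure D2:**
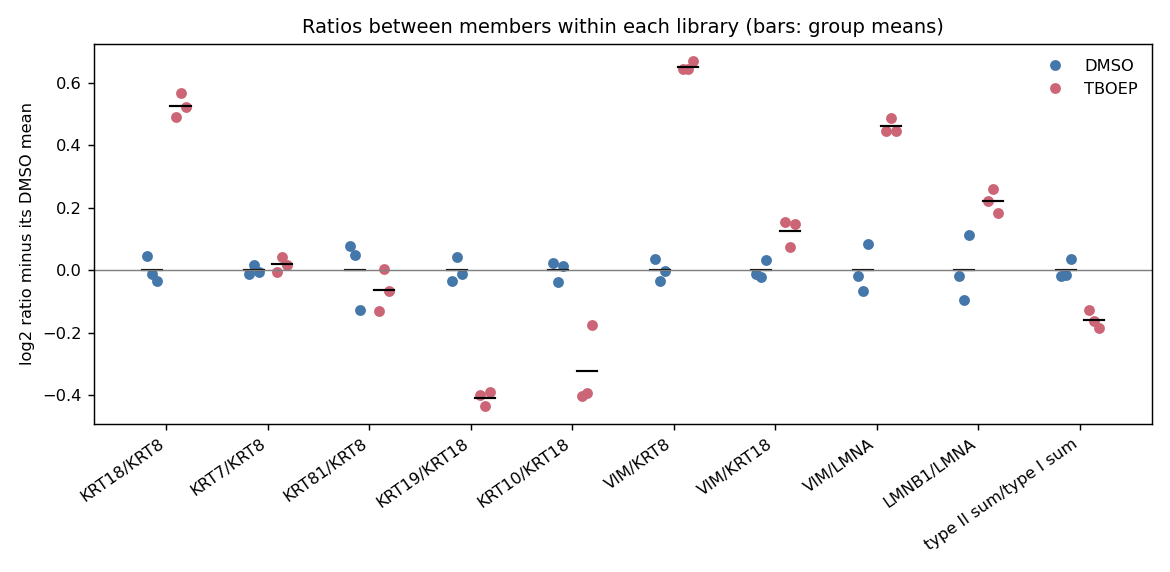
Log2 ratio of FPKM between pairs of members in each library, less the DMSO mean of that ratio (vertical axis), for DMSO (blue) and TBOEP (red); bars are group means. The groups lie apart for 8 ratios, with VIM to KRT8 (0.65) and KRT18 to KRT8 (0.53) the highest, and overlap for KRT7 to KRT8 and KRT81 to KRT8.

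VIM (ENSG00000026025; chromosome 10, 17228259 to 17237593, plus strand) was at 118, 116 and 117 FPKM in DMSO and 148, 146 and 152 in TBOEP. The groups were far apart relative to their spread. VIM rose by 27.1%, from 117 ± 1.09 to 149 ± 2.93 FPKM, a log2 fold change of 0.34 ± 0.03 (limma adjusted p = 1.28e-05). It was called higher in 18 of 19 alternatives. With GC and length of the principal transcript taken out the change was 0.17 (limma adjusted p = 9.77e-04); with those of the longest transcript it was 0.05 and not called (limma adjusted p = 0.130).

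Relative to the main keratins, VIM to KRT8 went from 0.356, 0.339 and 0.347 to 0.542, 0.542 and 0.552, a log2 difference of 0.65 (exact permutation p = 0.1, adjusted 0.125). VIM to KRT18 went from 1.23, 1.22 and 1.26 to 1.38, 1.30 and 1.37, a difference of 0.12 without overlap, which turned to -0.25 after GC and length correction. The ratio of VIM to KRT8, at 0.38 after the correction, did not turn. VIM to LMNA differed by 0.46 without overlap (exact permutation p = 0.1, adjusted 0.125), and by 0.11 after the correction.

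Other genes that mark epithelial or mesenchymal state moved in both directions in the fit without correction. Of 18 listed, 12 were tested, with 1 called higher, 3 lower and 8 not called. Their median log2 fold change was 0.05, or -0.07 after GC and length correction. With that correction 0 were called higher and 4 lower, where 45.3% of all genes in that fit were called. CDH1, OCLN, ESRP1, GRHL2, ZEB1 and ZEB2, named after their values were seen, stayed below 1 FPKM and were not tested. Over all tested genes 26.9% were called higher and 26.9% lower, the background for this list and for each list below. FN1 (fibronectin), a matrix gene that is often high together with vimentin, fell from 734 ± 13.1 to 559.8 ± 26.5 FPKM (log2 fold change -0.39, limma adjusted p = 3.52e-05). CDH2 (N-cadherin), a junction protein of mesenchymal and also of tubule cells, fell from 16.4 to 14.3 FPKM (-0.18, limma adjusted p = 0.00538; -0.32 after GC and length correction). CLDN4, a tight junction protein of epithelia, fell from 64.4 to 51.1 FPKM (-0.33, limma adjusted p = 6.40e-05). SPARC, a matrix glycoprotein, rose from 237 to 266 FPKM (0.16, limma adjusted p = 8.21e-04), a call lost at -0.05 after GC and length correction. The fibroblast marker COL1A1 was at 27.7 ± 1.59 FPKM in DMSO and 22.3 ± 0.128 in TBOEP. It made up nearly all of the summed fibroblast markers, at 26.8 to 29.6 FPKM in DMSO and 22.7 to 22.9 in TBOEP. COL1A2 and PDGFRA had no row. The part of fibroblast markers in the VIM result was not tested.

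The remaining filament genes of the family lay at lower levels than the main keratins and VIM, apart from LMNB2. Of 13 with a row, 6 were tested, with 0 called higher, 4 lower and 2 not called by limma, and a median log2 fold change of -0.14. At an unadjusted p under 0.05, and by limma-voom, 0 were higher as well, whereas after GC and length correction 1 of them, IFFO1 (named after its values were seen), was called higher at 0.15 (limma adjusted p = 0.0343). With the longest transcript IFFO1 was at -0.04 and not called (limma adjusted p = 0.548). NEFH, the heavy neurofilament subunit, fell from 25.7 ± 0.943 to 19.2 ± 0.614 FPKM (-0.40, limma adjusted p = 5.44e-05). NES (nestin), a filament protein that copolymerises with vimentin, fell from 11.5 to 10.2 FPKM (-0.16, limma adjusted p = 0.0135), a call lost after GC and length correction (limma adjusted p = 0.0579). IFFO2, which carries a filament domain, fell from 33.6 to 30.7 FPKM (-0.13, limma adjusted p = 0.0108).

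LMNB1 (ENSG00000113368; chromosome 5, 126776623 to 126837020, plus strand), lamin B1, stays farnesylated and bound to the inner nuclear membrane. It was at 31.5, 30.4 and 31.7 FPKM in DMSO and 33.8, 33.3 and 33.7 in TBOEP. The groups did not overlap but lay close. LMNB1 rose by 7.65%, a log2 fold change of 0.10 ± 0.03 (limma adjusted p = 0.0222). The call was lost without DMSO replicate 2 (limma adjusted p = 0.0653) and without TBOEP replicate 1, 2 or 3 (limma adjusted p = 0.0667, 0.0518 and 0.0557). After GC and length correction LMNB1 was called lower, at -0.18 (limma adjusted p = 0.00109).

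LMNA (ENSG00000160789; chromosome 1, 156082573 to 156140089, plus strand) encodes lamins A and C by alternative splicing, which gene-level values do not separate. It was at 49.8, 50.5 and 45.7 FPKM in DMSO and 45.1, 43.3 and 46.3 in TBOEP. The groups overlapped through DMSO replicate 3. The log2 fold change was -0.11 ± 0.04 (limma adjusted p = 0.0600), just beyond the threshold; without DMSO replicate 3 it was -0.16 and called lower (limma adjusted p = 0.00931). LMNB1 to LMNA went from 0.634, 0.602 and 0.695 to 0.749, 0.769 and 0.729, a log2 difference of 0.22 (exact permutation p = 0.1, adjusted 0.125), which turned to -0.23 after GC and length correction. The summed lamins were at 79.9 ± 2.16 and 78.5 ± 1.69 FPKM (exact permutation p = 0.5). LMNB2 (lamin B2), at a higher FPKM than either, fell from 117 ± 2.30 to 101.5 ± 0.195 FPKM (-0.21 ± 0.03, limma adjusted p = 2.19e-04), a call kept at -0.07 after GC and length correction and lost when the longest transcript was used (limma adjusted p = 0.0744).

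Genes that act on lamins moved in both directions. Among the 5 that prenylate or process them, 3 were called higher, 1 lower and 1 was not called, with a median of 0.20, or 0.03 after GC and length correction. ICMT, the methyltransferase that acts after prenylation, rose from 27.3 ± 0.304 to 37.3 ± 0.351 FPKM (0.44 ± 0.03, limma adjusted p = 5.86e-06), and held after correction at 0.30. FNTA and FNTB, the farnesyltransferase subunits, rose from 1.56 to 2.03 and from 1.45 to 1.82 FPKM (limma adjusted p = 0.0189 and 0.0286). RCE1, the protease of prenylated proteins, fell from 15.3 to 13.4 FPKM (-0.18, limma adjusted p = 0.0300). After GC and length correction these 3 calls were lost, at -0.08, 0.03 and 0.01, although FNTA kept its call with the longest transcript, at 0.29. They were also lost with single libraries left out. The limma adjusted p of FNTA was 0.0582 without DMSO replicate 2 and 0.0577 without TBOEP replicate 1. For FNTB it was 0.0693 without DMSO replicate 2, 0.0879 without DMSO replicate 3, 0.103 without TBOEP replicate 2 and 0.0546 without TBOEP replicate 3. For RCE1 it was 0.0717 without DMSO replicate 1, 0.0869 without DMSO replicate 2, 0.0960 without TBOEP replicate 1 and 0.0617 without TBOEP replicate 2.

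Of the 14 lamina partners and proteins that link nucleus and cytoskeleton, 11 were tested, with 2 called higher, 4 lower and 5 not called, and a median of -0.03. TOR1A (torsin A), an ATPase of the nuclear envelope lumen, rose from 15.4 ± 0.566 to 27.5 ± 0.774 FPKM (0.80 ± 0.04, limma adjusted p = 1.17e-06), and was called higher at 0.46 after GC and length correction. BANF1, a DNA-bridging partner of lamina proteins, fell from 235 to 196 FPKM (-0.26, limma adjusted p = 1.50e-04). EMD (emerin), which binds lamin A, fell from 128 ± 4.49 to 105 ± 0.338 FPKM (-0.29, limma adjusted p = 8.42e-05), and SUN1, an inner nuclear membrane anchor, rose from 7.33 to 8.65 FPKM (0.21, limma adjusted p = 0.00227). The EMD and SUN1 calls were lost after GC and length correction, at -0.09 and -0.00039.

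Linker proteins that tie filaments to desmosomes, hemidesmosomes and other cytoskeleton were lower or not called in the fit without correction. Of 18 listed 12 were tested, among them EPPK1 (epiplakin), which passed the filter only through the DMSO libraries and so had to differ. Of the other 11, 0 were called higher, 5 lower and 6 not called by limma, beside 26.9% higher and 26.9% lower over all tested genes. Their median was -0.12, or -0.01 after GC and length correction, beside -0.02 for all genes in both fits. At an unadjusted p under 0.05 limma had 0 higher, and limma-voom had 1, or 0 after adjustment. JUP, a linker named after its values were seen, was at 0.08 after GC and length correction and not called (limma adjusted p = 0.0540). With the longest transcript JUP was called higher, at 0.09 (limma adjusted p = 0.0297). PLEC (plectin), which crosslinks keratin and vimentin filaments, fell from 33.8 ± 0.195 to 25.3 ± 0.809 FPKM (-0.40 ± 0.03, limma adjusted p = 1.94e-05). DSP (desmoplakin), which anchors keratins to desmosomes, fell from 2.20 ± 0.127 to 1.53 ± 0.0471 FPKM (-0.33 ± 0.06, limma adjusted p = 0.00150), and DSG2, a desmosomal cadherin, from 2.80 to 2.16 FPKM (-0.27, limma adjusted p = 0.00598). These 3 were called lower after GC and length correction as well, between -0.26 and -0.18. EPPK1, a keratin-binding linker, was at 1.47 FPKM in DMSO and 0.766 in TBOEP.

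Of 17 regulators of keratin and vimentin filaments 13 were tested, with 3 called higher, 5 lower and 5 not called, and a median of -0.03, or -0.08 after GC and length correction. TRIM21, a ubiquitin ligase, rose from 4.53 to 7.37 FPKM (0.60, limma adjusted p = 4.26e-05; 0.31 after the correction), and PPP1CC, a catalytic phosphatase subunit, from 15.1 to 20.7 FPKM (0.43, limma adjusted p = 4.71e-05). PRMT1, an arginine methyltransferase, fell from 195 to 156 FPKM (-0.32, limma adjusted p = 4.07e-05; -0.17 after the correction). STUB1, a chaperone-linked ubiquitin ligase, fell from 35.4 to 26.3 FPKM (-0.42, limma adjusted p = 3.06e-05), a call lost at -0.08 after correction.

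**Figure D3:**
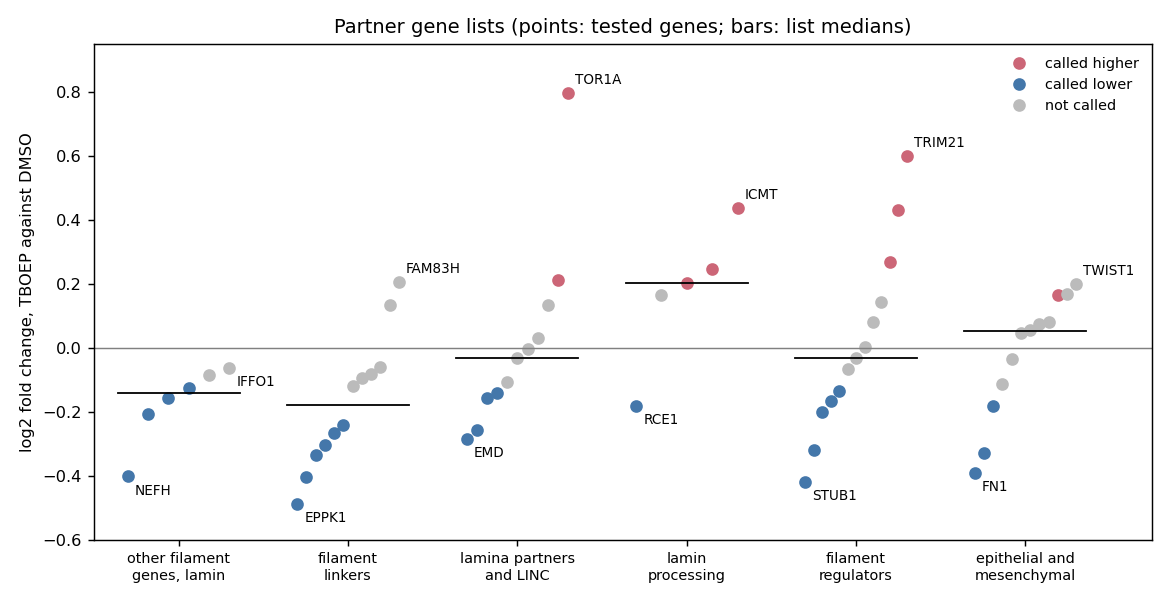
Log2 fold change of TBOEP against DMSO (vertical axis) for each tested gene of the 6 partner lists, red where called higher, blue where called lower and grey where not called; bars are list medians. Filament linkers (median -0.18 with EPPK1, -0.12 without it) hold no gene called higher in the fit shown, TOR1A (0.80) stands above the other lamina partners, and FN1 (-0.39) is the lowest of the epithelial and mesenchymal genes.

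Keratin transcripts are rich in G and C, and the change across all genes differed with GC content, though not steadily. Tested genes with 60% GC or more in the principal transcript had a median log2 fold change of -0.23. Of these, 64.3% were called lower and 1.31% higher. Those of 45 to 50% had a median of 0.16, with 47.3% called higher and 10.3% lower. Under 45%, the largest band, the median was 0.01, with 28.7% called higher and 19.5% lower. 5 members lie in the top band: KRT7 (62.9%), KRT81 (62.3%), KRT19 (61.8%), LMNA (61.5%) and KRT18 (60.5%). KRT8 was at 59.1%, KRT80 at 56.8%, VIM at 54.1%, KRT10 at 52.0% and LMNB1 at 47.7%. By the longest transcript instead, KRT18 was at 55.7%, in the band of 55 to 60% where 16.7% of genes, placed by their principal transcripts, were called higher, and VIM was at 46.9%. KRT7 (-0.28) and KRT19 (-0.19) lay near the median of the top band, and KRT81 (-0.36) at its lower quartile (-0.36).

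**Figure D4:**
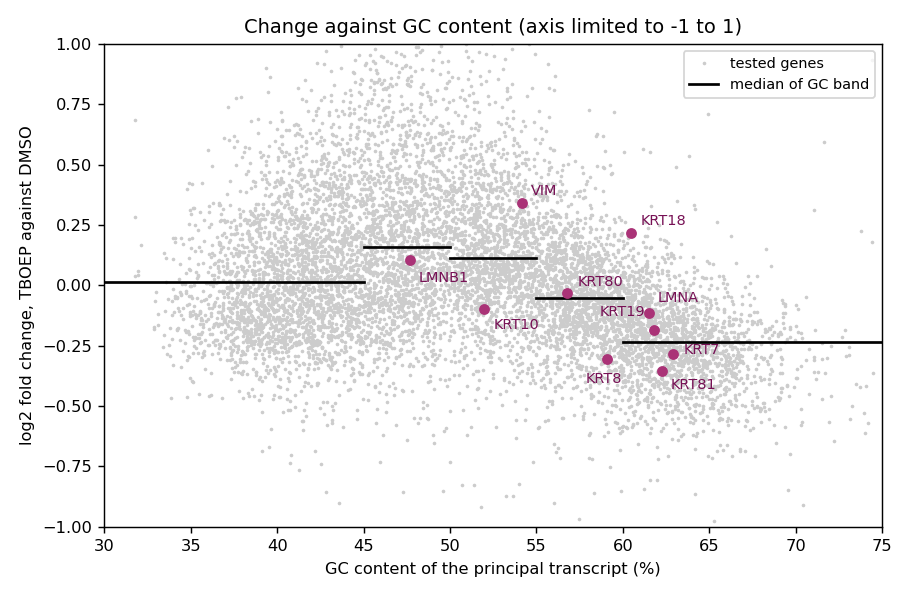
Log2 fold change of TBOEP against DMSO (vertical axis, limited to -1 to 1) against GC content of the principal transcript in percent (horizontal axis) for tested genes (grey) and the 10 members (purple); black lines are medians of GC bands. KRT18 and VIM lie above the medians of their bands (-0.23 and 0.11), KRT8 below its own (-0.05), KRT7 and KRT19 near that of the band from 60%, and KRT81 below it.

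With GC content and length taken out of each library, 3 members were called higher and 3 lower, against 45.3% of the 9529 genes in that fit. KRT18 was at 0.42 (limma adjusted p = 5.69e-06), VIM at 0.17 and KRT19 at 0.07 on the higher side. KRT8 at -0.21 (limma adjusted p = 2.02e-04), KRT10 at -0.36 and LMNB1 at -0.18 were lower. KRT8, KRT18 and VIM thus kept both direction and call, though VIM lost its call with the longest transcript. KRT80 stayed below 0 and uncalled. KRT7, KRT19, KRT81, KRT10 and LMNB1 changed call or direction, and LMNA, not called in either fit, turned from -0.11 to 0.06. The part of GC content in these results, and whether it reflects library preparation or the cells, was not tested.

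**Figure D5:**
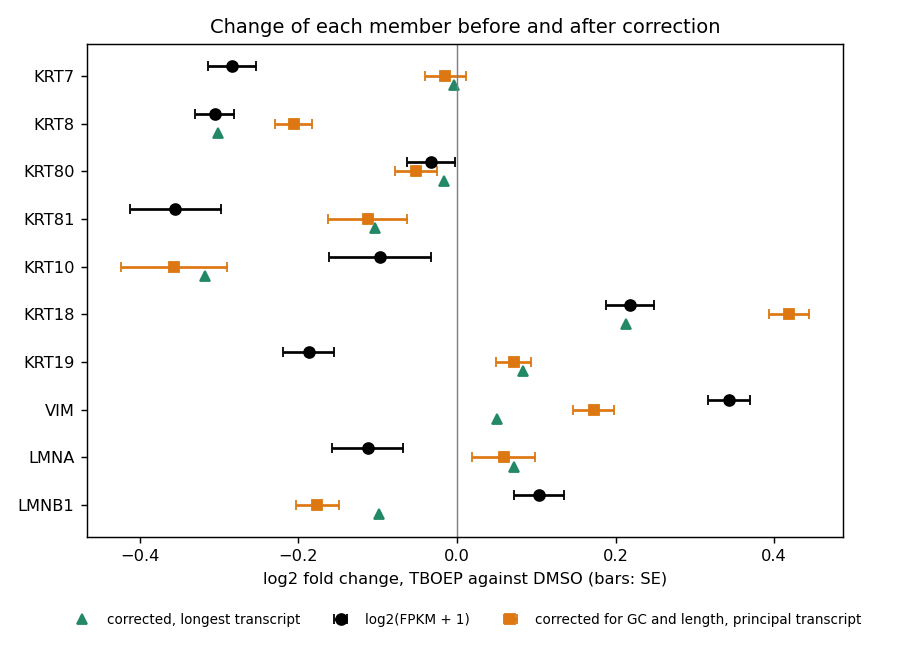
Log2 fold change of TBOEP against DMSO (horizontal axis) for each member as fitted on log2(FPKM + 1) (black, bar SE), after correction for GC and length of the principal transcript (orange, bar SE) and of the longest transcript (green). KRT8 stays below 0 and KRT18 above 0 in all 3, whereas KRT19 goes from -0.19 to 0.07 and LMNB1 from 0.10 to -0.18.

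By Euclidean distance over the 6 centred log2(FPKM + 1) values, the genes nearest to KRT18 among 9630 compared were MAP3K8 (0.0341), TTC19 (0.0380) and BTN3A1 (0.0391). Those nearest to VIM were VEGFA (0.0337), APMAP (0.0446) and KLHL18 (0.0454). APMAP was at levels like those of VIM, 131 FPKM in DMSO and 163 in TBOEP, whereas VEGFA was at 5.56 and 7.40 FPKM.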

How the data were processed

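RNA from 3 DMSO and 3 TBOEP libraries of HK2 cells was sequenced, grouped by the treatment label. Per the labels' protocols, RNA was extracted with TRIzol, an integrity number of at least 7 was required, and 2 library kits are named (VAHTS Universal V6 and TruSeq Stranded Total). The submitters' processing notes name Trimmomatic and HISAT2, with no version; which counter, genome build and annotation they used was not given.

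The authors deposited 1 value per gene, read here as FPKM: the header gives no unit, and within a tolerance of 0.01 reads the values were whole reads for 25805 of 25808 genes once each library had 1 total. Counting error at the fewest reads was 0.403% for KRT8 and 2.85% for KRT81, and covers counting only. Symbols matched 25795 IDs.

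Genes reaching 1 FPKM in 3 or more of the 6 libraries were fitted with limma 3.58.1 in R 4.3.3 (trended, robust empirical Bayes) on log2(FPKM + 1), so folds of low genes are understated. The fit was checked on simulated data with few changed genes and no GC trend, unlike the data here. For the correction, mgcv 1.9.3 fitted and subtracted, in each library, a smooth function of the GC content and log length of 1 GENCODE 29 principal transcript per gene (98.9% of tested genes). Ratios and sums were tested by exact two-sided permutation. All pairs of replicates differed by more than sampling noise (chi-square per degree of freedom 8.81 to 11.8). GENCODE 29 gave positions and sequences by gene ID; the table itself names no build.

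Named are all 10 members, the up to 4 genes of each list with the smallest p, every other keratin or keratin pseudogene reaching 1 FPKM, and the 3 genes nearest to KRT18 and VIM. The members and lists were chosen with earlier results of these data known. Alternatives were a pseudocount of 0.1, a filter at 5 FPKM or none, median centring, quantile normalization, limma-voom on recovered reads, protein-coding genes alone, fits without trend or without robust moderation, a replicate block, leaving out each library, GC and length correction, and adding pseudogene values to KRT8 and KRT18. Some items that these rules take are not reported here.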

Additional observations from a re-analysis of the deposited data

How the results depend on the processing

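Over all tested genes 5178 were called, 3714 with a filter at 5 FPKM, 5485 after median centring and 5533 by limma-voom on recovered reads. Leaving out single libraries gave 4556 to 4774 calls, 2 to 3 members higher and 4 to 5 lower, and 7 to 10 list genes higher and 19 to 23 lower, against 9 and 23 with all libraries. Same-numbered libraries deviated together little (correlations 0.105, -0.0331 and 0.00725), and differently numbered ones lay between -0.112 and 0.104. With 3 libraries a group this cannot tell whether the numbers pair them. With the replicate number as a block 4791 genes were called, 3 members higher and 4 lower, and the KRT8 and KRT18 calls were kept. Quantile normalization gave KRT80 0.0038.

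GC and length correction turned log2 fold changes, with or without the replicate block: KRT19 to 0.072, LMNA to 0.059, LMNB1 to -0.18, SUN1 to -0.00039, RCE1 to 0.013, FNTA to -0.081, SPARC to -0.046, KRT78 to 0.089 and KRT8P3 to 0.020. It also turned the log2 ratios KRT81 to KRT8 (0.093), VIM to KRT18 (-0.25) and LMNB1 to LMNA (-0.23), and together with the block left 5 list genes higher. With the longest transcript per gene, an alternative chosen after seeing the data, the values were 0.083 for KRT19, 0.071 for LMNA, -0.098 for LMNB1, 0.054 for RCE1, -0.070 for SPARC and 0.037 for KRT8P3. The ratios were then 0.20 for KRT81 to KRT8, -0.16 for VIM to KRT18, -0.17 for LMNB1 to LMNA and -0.021 for VIM to LMNA. The cause was not tested. With 3 libraries a group, an exact test of a ratio cannot go below 0.1.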

Other observations

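Genes on the strand opposite to members were looked at after their values were seen. KRT10-AS1, whose annotated exons overlap those of KRT10 by 56 bases, was at 11.8, 12.2 and 12.7 FPKM in DMSO and 16.8, 16.4 and 16.4 in TBOEP. Its groups were well apart, with a log2 fold change of 0.40 ± 0.04 (limma adjusted p = 4.95e-05) and 0.32 after GC and length correction, while KRT10 itself was not called. VIM-AS1, which overlaps VIM by 641 bases, was at 0.462 ± 0.0403 FPKM in DMSO and 0.286 ± 0.0497 in TBOEP (SD, n = 3), on 17 to 39 reads per library and under the filter, so it was not tested; VIM was the higher in TBOEP. KRT7-AS was at 0.703 and 0.739 FPKM and not tested. Without knowledge of strand in counting, reads of a gene and of its antisense partner cannot be told apart in the shared bases.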
